A study of Mus musculus with 8 samples.

Results

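Osteoclasts are the giant, multinucleate cells that dissolve bone, and they form by fusion of precursors of the monocyte and macrophage lineage. The cytokine RANKL binds its receptor RANK on these precursors, and with M-CSF and receptors that signal through ITAM adaptors it switches on the transcription factor NFATc1. NFATc1 then drives genes for fusion, for attachment to bone, for acid secretion and for the enzymes that digest bone matrix. Macrophages grown from bone marrow with M-CSF can enter this path, and bacterial products such as LPS can block or promote it according to the stage of the cells.

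The 9 genes described here are the calcitonin receptor Calcr, the proteases and phosphatases of resorption Ctsk and Acp5, the proton pump subunit Atp6v0d2, the fusion proteins Dcstamp and Ocstamp, the regulator Nfatc1, the integrin chain Itgb3 and the ITAM-coupled receptor Oscar. They were taken by mouse symbol, each from 1 Ensembl gene row of the count table, out of 55401 genes in all. They were chosen by function and with the fold changes of these libraries in view, so the calls given for the 9 genes are a description and not a test. A filter on low counts was passed by 8 of them, among 17470 tested genes, and Oscar did not pass.

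The RNA came from macrophages grown from the bone marrow of mice whose Mettl3 alleles are both floxed. METTL3 is the catalytic subunit that writes N6-methyladenosine (m6A) on mRNA. KO denotes macrophages of Lyz2-Cre-Mettl3fl/fl mice, in which Cre is driven by the myeloid Lyz2 promoter, and WT denotes macrophages of Mettl3fl/fl mice without Cre, so an effect of the deletion and one of Cre cannot be told apart. The 4 groups were stimulated KO, KO with PBS, stimulated WT and WT with PBS, with 2 libraries each. Stimulated cells received LPS, a ligand of TLR4, at 50 ng/ml overnight and then nigericin, a potassium ionophore that triggers the NLRP3 inflammasome, at 10 µM for 3 h (the text of the series names 1 h as well). The labels name no RANKL treatment, and no age of the mice is stated. Whether both libraries of a group stem from different mice or cultures is not said, so errors and p-values measure only the spread between libraries, possibly technical.

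The libraries held 55032057 to 65487739 counts. Mettl3 had 9.08 and 7.87 CPM (counts scaled to library size and composition) in stimulated KO against 28.2 and 23.4 CPM in stimulated WT, and 5.63 and 6.33 CPM in KO with PBS against 13.6 and 13.3 CPM in WT with PBS. All 10 macrophage markers examined were present, with sums of 29680 to 31600 CPM in KO and 45190 to 50640 CPM in WT. Lyz2, the locus of the Cre driver, made up 14740 to 17510 CPM of that in KO and 32220 to 35400 CPM in WT. The median log2 difference of the 10 markers, KO minus WT, was -0.01 after stimulation and 0.17 with PBS, so the lower sum in KO was not shared by the list. In bulk RNA, fewer cells of a type and less RNA per cell cannot be told apart.

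Of the 9 genes, 4 have an entry in the RefSeq promoter table (GRCm38.p6). The promoters of Calcr, Acp5 and Ctsk are shown because Calcr and Acp5 were called higher and Ctsk lower after stimulation in both genotypes. Each window runs from 250 bases before the start site to 10 bases after it. Calcr and Acp5 have several entries, and one is given whose bases from the start site onward occur in a GENCODE M21 transcript of the gene. Whether a transcript begins there was not tested. The start site of the single Ctsk entry lies upstream of the GENCODE gene start. Capitals mark the PU.1 core GAGGAA and the NFAT core GGAAA on either strand.
Calcr, chr6:3764704-3764963, minus strand: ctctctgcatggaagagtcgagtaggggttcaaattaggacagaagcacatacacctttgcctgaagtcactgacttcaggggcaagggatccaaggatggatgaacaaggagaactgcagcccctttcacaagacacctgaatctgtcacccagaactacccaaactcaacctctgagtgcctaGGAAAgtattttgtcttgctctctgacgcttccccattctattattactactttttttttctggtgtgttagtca
Acp5, chr9:22130589-22130848, minus strand: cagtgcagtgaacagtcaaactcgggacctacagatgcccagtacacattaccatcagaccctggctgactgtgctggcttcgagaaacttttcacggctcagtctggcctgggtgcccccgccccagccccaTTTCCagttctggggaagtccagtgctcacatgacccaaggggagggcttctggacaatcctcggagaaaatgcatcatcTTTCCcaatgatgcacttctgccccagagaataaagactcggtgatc
Ctsk, chr3:95498960-95499219, plus strand: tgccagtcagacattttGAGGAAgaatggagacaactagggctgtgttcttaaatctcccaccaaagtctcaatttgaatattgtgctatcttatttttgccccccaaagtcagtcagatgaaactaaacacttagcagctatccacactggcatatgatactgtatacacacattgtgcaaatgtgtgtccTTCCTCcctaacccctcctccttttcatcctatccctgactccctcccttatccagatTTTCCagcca

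The NFAT core occurs once in the Calcr window, at -65, 2 times in that of Acp5, at -117 and -37, and once in that of Ctsk, at the start site. That core is held by 56.9% of the 32851 windows of this length in RefSeq. The PU.1 core occurs 2 times in the Ctsk window, at -233 and -58, and 24.1% of windows hold it. None of the 3 windows holds the AP-1 motif TGANTCA (in 7.03% of windows) or the E-box CACGTG (6.34%), and GAGGAA can overlap GGAAA. A motif match describes letters in the window only.

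Stimulation moved these genes in opposite directions. Calcr and the phosphatase gene Acp5 were called higher after LPS and nigericin in both genotypes, while Atp6v0d2, Ctsk and Itgb3 were called lower in both, Atp6v0d2 by 31.1-fold in KO and 24.0-fold in WT. A call is an adjusted p under 0.05 in edgeR's quasi-likelihood test across all tested genes. In stimulated KO 2 of the 8 tested genes were called higher and 5 lower, where 39.1% of all tested genes were called, 20.2% higher and 19.0% lower. In stimulated WT 2 were called higher and 3 lower, where 40.5% of all tested genes were called, 20.6% higher and the rest lower. With library size as the only scaling the higher calls were 36.5% of all calls in WT, in place of 50.7%. The plot of levels by library shows all 9 genes.

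**Figure D1:**
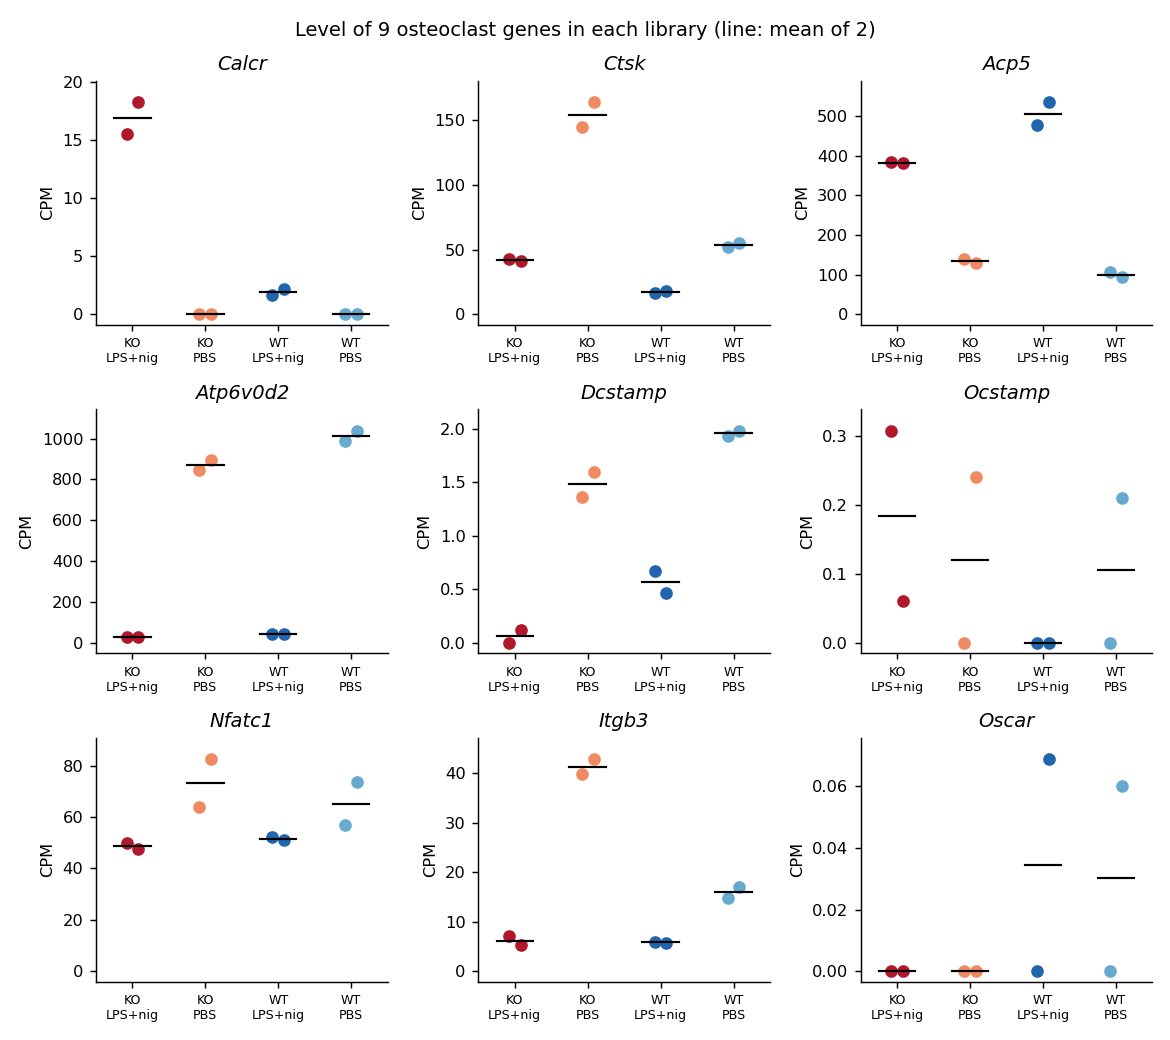
Level of each of the 9 genes (CPM, linear axis, 1 scale per gene) in the 8 libraries; points are libraries and lines the mean of the 2 libraries of a group. Calcr reads 0 in all 4 PBS libraries, and Atp6v0d2 lies between 845 and 1039 CPM with PBS and at or below 44.3 CPM after stimulation.

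Nfatc1, the master regulator of osteoclast formation (chromosome 18, 80606205 to 80713071, minus strand, GRCm38), lay between 47.6 and 82.5 CPM in the 8 libraries. It had 49.9 and 47.6 CPM in stimulated KO against 63.8 and 82.5 CPM in KO with PBS, and 52.3 and 51.0 CPM in stimulated WT against 56.8 and 73.6 CPM in WT with PBS. Both stimulated groups lay below both PBS groups, whose libraries differed more from each other than the stimulated ones did. The log2 difference was -0.59 ± 0.16 (SE, n = 2 per group) in KO, which was called, and -0.34 ± 0.16 in WT, which was not called and was called at -0.52 with library size as the only scaling. The KO call was lost without KO PBS replicate 2 or either stimulated KO library.

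The receptors for RANKL and M-CSF, which act upstream of Nfatc1, had counts in every library. Tnfrsf11a, which encodes RANK, had 53.7 and 59.1 CPM in stimulated KO against 60.3 and 74.9 CPM in KO with PBS, and 66.3 and 59.4 CPM in stimulated WT against 60.8 and 65.3 CPM in WT with PBS. It was called in none of the 5 comparisons by edgeR's test. Its ligand RANKL, Tnfsf11, lay between 0 and 0.74 CPM in the 8 libraries. Csf1r, the M-CSF receptor, lay between 3505 and 4970 CPM and fell by 0.29 on the log2 scale in stimulated KO (adjusted p in edgeR's quasi-likelihood test 0.00558). In stimulated WT Csf1r was at -0.14 ± 0.06 and was not called (adjusted p in edgeR's test 0.0837).

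Calcr, the receptor for calcitonin, a hormone that halts resorption (chromosome 6, 3685680 to 3764714, minus strand), had no count in any PBS library. Stimulated KO held 858 and 1200 counts, or 15.5 and 18.3 CPM, and stimulated WT held 92 and 126 counts, or 1.67 and 2.17 CPM. The groups do not overlap, and the level after stimulation was higher in KO by 3.13 ± 0.22 log2 units, or 8.78-fold, which was called and stayed called in all alternatives. With the empty PBS group set to 3 counts in all, Calcr was at least 687-fold higher in stimulated than in PBS KO and at least 84.6-fold higher in stimulated than in PBS WT. The difference of both responses cannot be estimated for a gene with empty PBS groups in both genotypes.

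The protein partners that change what the calcitonin receptor binds did not follow it. Ramp1, a membrane protein that pairs with Calcr and its relative Calcrl, had 0.326 and 0.639 CPM in stimulated KO against 6.83 and 6.41 CPM in KO with PBS, and 0.437 and 0.327 CPM in stimulated WT against 6.14 and 4.71 CPM in WT with PBS. It fell by 3.76 ± 0.34 log2 units in KO and by 3.82 ± 0.35 in WT (adjusted p in edgeR's test 0.000187 and 0.000191). Calcrl rose by 0.57 ± 0.12 in KO and by 0.82 ± 0.12 in WT. Ramp2 did not pass the filter, and Ramp3 stayed at or below 0.46 CPM.

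Oscar, a collagen-binding receptor that costimulates osteoclast formation through the adaptor Fcer1g (chromosome 7, 3609813 to 3616157, minus strand), had 0 counts in all 4 KO libraries and 0 or 4 counts in the WT libraries. A count of 3 over both libraries of a group corresponds to 0.0228 to 0.0265 CPM, so the gene lay close to what these libraries can show. Its adaptor Fcer1g was abundant and rose by 1.62 ± 0.08 log2 units in KO and by 1.60 ± 0.08 in WT (adjusted p in edgeR's test 1.15e-05 and 1.2e-05). Trem2, which signals through the adaptor Tyrobp, fell by 2.67 ± 0.08 in KO and by 2.48 ± 0.08 in WT.

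Ocstamp, a multipass membrane protein needed for cell fusion (chromosome 2, 165393760 to 165400405, minus strand), had 17 and 4 counts in stimulated KO, 0 and 15 in KO with PBS, 0 and 0 in stimulated WT and 0 and 14 in WT with PBS. The libraries of a group disagree as much as the groups do, and no difference was detectable at this depth. Dcstamp, its relative that is likewise needed for fusion (chromosome 15, 39745930 to 39760938, plus strand), was low but better measured. It had 0 and 8 counts in stimulated KO against 80 and 100 in KO with PBS, and 37 and 27 in stimulated WT against 126 and 132 in WT with PBS.

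For Dcstamp the stimulated libraries lay below the PBS libraries in both genotypes and the stimulated KO libraries below the stimulated WT ones. The log2 difference between stimulated and PBS cells was -4.48 ± 0.84 in KO, which was called, and -1.78 ± 0.67 in WT, which was not, although DESeq2, a fit of only these groups and the fits without either stimulated KO library called it. Stimulated KO against stimulated WT differed by -3.10 ± 0.85, which was not called by edgeR and was called by DESeq2.

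Atp6v0d2 encodes the d2 subunit of the vacuolar proton pump (V-ATPase), the isoform that osteoclasts use in place of the ubiquitous d1 and that is needed for their fusion (chromosome 4, 19876841 to 19922605, minus strand). It had 29.5 and 26.4 CPM in stimulated KO against 845 and 893 CPM in KO with PBS, and 40.3 and 44.3 CPM in stimulated WT against 989 and 1039 CPM in WT with PBS. Every stimulated library lay far below every PBS library, and with either treatment KO lay below WT. The log2 difference between stimulated and PBS cells was -4.96 ± 0.10 in KO and -4.58 ± 0.10 in WT. The difference between KO and WT was -0.60 ± 0.08 after stimulation, a call lost without either stimulated KO library, without stimulated WT replicate 2 and with only these 2 groups in the fit, and -0.22 ± 0.08 with PBS, which was not called.

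The ubiquitous isoform Atp6v0d1 changed far less, by -0.27 ± 0.08 in KO (adjusted p in edgeR's test 0.0268) and -0.21 ± 0.08 in WT (adjusted p in edgeR's test 0.0674). Per kb of exon the d2 gene stood at 10.3 CPM and the d1 gene at 84.7 CPM in stimulated KO, against 320 and 102 CPM in KO with PBS. In stimulated WT the d2 gene stood at 15.6 and the d1 gene at 92.9 CPM per kb, against 373 and 107 CPM per kb in WT with PBS. The order of the pair was thus opposite in stimulated and PBS cells of both genotypes.

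The other genes of the pump and of acid secretion did not move as one. Of 28 on a list without Atp6v0d2, 25 were tested, 4 rose and 7 fell in stimulated KO, and 6 rose and 9 fell in stimulated WT, with median log2 differences of -0.01 and -0.06, beside -0.03 and -0.01 over all tested genes. Atp6v0a1, a membrane subunit, fell by 2.29 ± 0.09 in KO and by 2.07 ± 0.09 in WT. Clcn7, the chloride and proton exchanger of the ruffled border, rose by 1.24 ± 0.07 in KO and by 1.30 ± 0.07 in WT. Tcirg1, the a3 subunit of the osteoclast pump, was at -0.02 ± 0.05 in KO, not called, and rose by 0.28 ± 0.05 in WT (adjusted p in edgeR's test 0.00571). After stimulation KO minus WT on the log2 scale was -0.37 ± 0.05 for Tcirg1 (adjusted p in edgeR's test 0.016) and -0.34 ± 0.05 for Atp6v1a, of the catalytic part (adjusted p 0.0173 in edgeR's test). It was 2.28 ± 0.26 for the stalk subunit Atp6v1g2 (adjusted p 0.00673 in edgeR's test). Atp6v1g2 was low, at 3.87 and 2.92 CPM in stimulated KO against 0.655 and 0.740 CPM in stimulated WT. Atp6v1g1, on the same list, lay between 183 and 219 CPM in these libraries and was not called there.

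**Figure D2:**
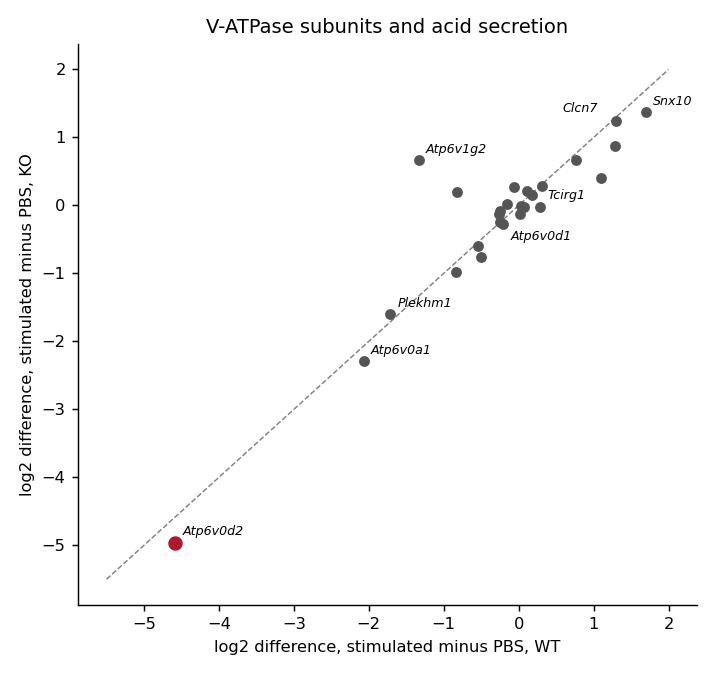
Log2 difference between stimulated and PBS cells for Atp6v0d2 (red) and the 25 tested genes of V-ATPase subunits and acid secretion (grey), WT on the horizontal and KO on the vertical axis, with the line of equal values dashed. Atp6v0d2 sits at -4.58 in WT and -4.96 in KO, and the next lowest in both is Atp6v0a1 at -2.07 and -2.29.

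Acp5 encodes tartrate-resistant acid phosphatase (TRAP), the enzyme stained to identify osteoclasts, which activated macrophages also make (chromosome 9, 22126727 to 22135711, minus strand). It had 383 and 381 CPM in stimulated KO against 139 and 128 CPM in KO with PBS, and 476 and 535 CPM in stimulated WT against 106 and 93.8 CPM in WT with PBS. Stimulated libraries were the highest in both genotypes, and KO lay below WT after stimulation and above WT with PBS. The response was 1.52 ± 0.09 log2 units in KO and 2.34 ± 0.10 in WT, both called. The difference of the responses, -0.82 ± 0.13, was not called by edgeR and was called by DESeq2. An antisense gene, 6530413G14Rik, overlaps Acp5 in exons and was listed at no more than 0.246 CPM, and without a known strand setting the reads of the pair cannot be told apart.

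Ctsk encodes cathepsin K, the main protease of bone collagen, which fibroblasts express too (chromosome 3, 95499256 to 95509362, plus strand). It had 42.5 and 40.9 CPM in stimulated KO against 145 and 164 CPM in KO with PBS, and 16.1 and 17.6 CPM in stimulated WT against 52.1 and 54.8 CPM in WT with PBS. All 4 groups were apart, with KO above WT under both treatments. Stimulation changed it by -1.89 ± 0.09 log2 units in KO and -1.67 ± 0.09 in WT. KO exceeded WT by 1.31 ± 0.09 after stimulation and by 1.53 ± 0.09 with PBS, and these 4 calls were kept in all alternatives.

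Of 9 markers of osteoblasts and stromal cells 8 were tested, and 7 were higher and 0 lower in KO after stimulation and 2 higher and 0 lower with PBS. Of all tested genes 2.91% were higher and 2.01% lower in KO after stimulation, and 1.2% higher and 0.355% lower with PBS. Their summed level was 366 to 414 CPM in stimulated KO against 146 to 150 CPM in stimulated WT, and 335 to 355 CPM in KO with PBS against 214 to 233 CPM in WT with PBS. Of the osteoblast markers, Bglap was at or below 0.0614 CPM in all libraries, and Runx2 lay between 1.69 and 6.40 CPM. Alpl had 1.79 and 1.13 CPM in stimulated KO against 0.546 and 0.465 CPM in stimulated WT, which edgeR called. With PBS Alpl had 4.12 and 4.29 CPM in KO against 1.69 and 1.52 CPM in WT, which was not called. Of 4 tested markers of B and plasma cells 3 were higher in KO after stimulation and 1 with PBS, beside the same shares of all tested genes. Of the 3, Cd79a had 24 and 30 counts in stimulated KO and 0 in both stimulated WT libraries. Only in stimulated KO did both of its libraries reach 10 counts, so it passed the filter through the group where it was called higher. The 6 markers of the B and plasma cell list summed to 14.8 to 16.1 CPM in stimulated KO against 5.49 to 7.69 CPM in stimulated WT. With PBS they summed to 30.4 and 38.0 CPM in KO against 51.9 and 53.4 CPM in WT. Ighm was the largest term, with 28.2 and 35.8 CPM in KO with PBS against 51.6 and 53.0 CPM in WT with PBS. Jchain, the 1 marker called with PBS, went the other way, at 1.87 and 1.75 CPM in KO against 0.184 and 0.331 CPM in WT. The part of both marker lists in the Ctsk difference was not tested.

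Other genes of matrix digestion split as well. Mmp14, a membrane-bound collagenase, rose by 3.24 ± 0.09 in KO and by 3.64 ± 0.09 in WT, and was higher in KO by 0.56 ± 0.08 after stimulation (adjusted p in edgeR's test 0.0158) and by 0.96 ± 0.08 with PBS (adjusted p in edgeR's test 0.00453). Mmp9, the gelatinase abundant in osteoclasts, rose by 0.59 ± 0.11 in KO and by 0.34 ± 0.11 in WT. The lysosomal protease gene Ctsb fell by 1.16 ± 0.05 in KO and by 1.03 ± 0.05 in WT.

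Itgb3 encodes the β3 chain of the vitronectin receptor αvβ3, by which osteoclasts grip bone (chromosome 11, 104608000 to 104670476, plus strand). It had 7.02 and 5.37 CPM in stimulated KO against 39.8 and 42.9 CPM in KO with PBS, and 5.89 and 5.75 CPM in stimulated WT against 14.8 and 17.1 CPM in WT with PBS. KO with PBS was above all other groups, and the stimulated groups overlapped. KO minus WT was, on the log2 scale, 1.38 ± 0.15 with PBS, a call lost without KO PBS replicate 2 or WT PBS replicate 1, and 0.09 ± 0.15 after stimulation, which was not called. The responses to stimulation were -2.74 ± 0.16 in KO and -1.45 ± 0.15 in WT. Their difference, -1.29 ± 0.21, was not called by edgeR and was called by DESeq2.

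The αv partner, Itgav, was called in none of the 5 comparisons by edgeR, with 55.7 and 46.7 CPM in KO with PBS against 49.8 and 39.4 CPM in WT with PBS. Platelets pair β3 with Itga2b instead, which had 1.79 and 0.993 CPM in KO with PBS against 3.13 and 2.96 CPM in WT with PBS. Of 6 markers of megakaryocytes and platelets, a list added after the values were seen, 1 was higher in KO with PBS and 0 were lower by edgeR's test. That gene, Vwf, had 130 and 143 CPM in KO with PBS against 44.8 and 45.8 CPM in WT with PBS. The 6 summed to 152 and 163 CPM in KO with PBS against 71.2 and 72.1 CPM in WT with PBS, and to 43.6 and 36.3 CPM in stimulated KO against 35.1 and 41.7 CPM in stimulated WT, with Vwf the largest term in the PBS groups. Every other marker of this list had a lower mean in KO with PBS than in WT with PBS. The median log2 difference of the list there was -0.49. Their part in the Itgb3 difference was not tested.

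**Figure D3:**
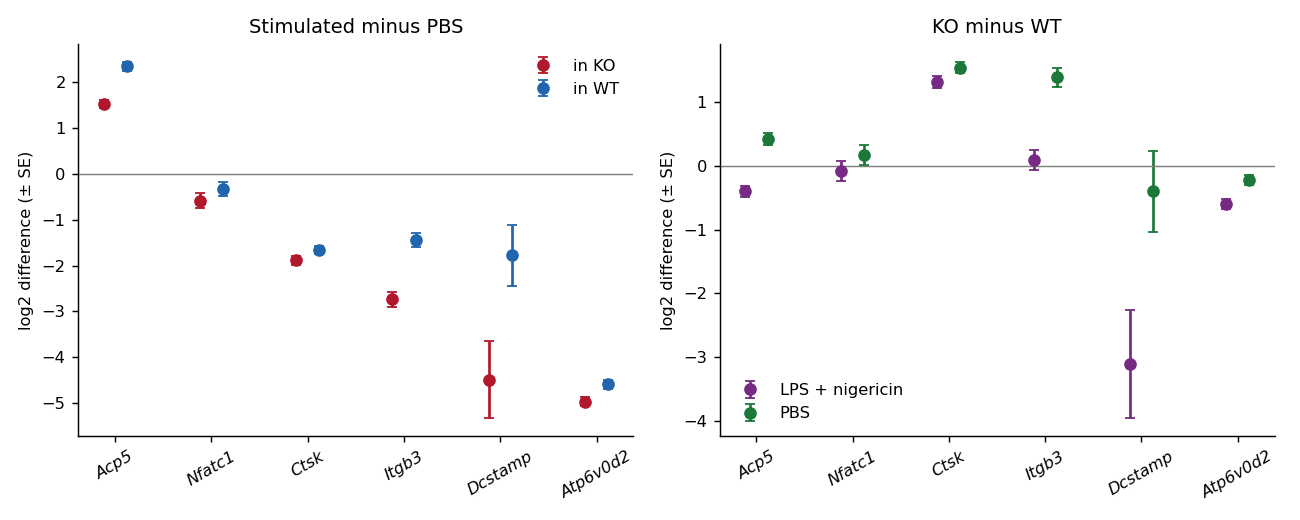
Log2 differences (edgeR, ± SE, n = 2 libraries per group) of the 6 genes with counts in all groups and enough reads to fit, for stimulated minus PBS cells in KO and WT (left) and for KO minus WT after stimulation and with PBS (right). Ctsk is above 0 under both treatments at right, at 1.31 and 1.53, and Acp5 changes sign between them, at -0.40 and 0.42.

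Between the genotypes, 2 of the 8 tested genes, Calcr and Ctsk, were called higher and 1, Atp6v0d2, lower in KO after stimulation, where 4.92% of all tested genes were called, 2.91% higher and 2.01% lower. DESeq2 called 3 lower there, adding Acp5 and Dcstamp, and a fit of only these groups called 0 lower. With library size as the only scaling 81.6% of those calls over all genes were higher, in place of 59.1%. With PBS 2, Ctsk and Itgb3, were called higher and 0 lower in KO by edgeR, where 1.55% were called, 1.2% higher and 0.355% lower. Calcr, without a count in any PBS library, could not be called with PBS. DESeq2 also called Acp5 higher with PBS and 0 lower. In edgeR 4 members had an unadjusted p under 0.05 there, and the share of all genes under that cutoff was not computed. In the difference of both responses edgeR called 0 of the 8, where 0.498% of all tested genes were called, 0.103% higher and 0.395% lower. Calcr, empty in both PBS groups, could not be called in that difference, and Ocstamp was empty in stimulated WT. There 4 members had an unadjusted edgeR p under 0.05, again without a computed share over all genes, and DESeq2 called 2, Acp5 and Itgb3. The Nfatc1 difference between genotypes was 0.17 ± 0.16 with PBS and -0.08 ± 0.16 after stimulation, a value that turned to 0.06 with library size as the only scaling.

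Per kb of exon, so that genes can be compared, Acp5 led in stimulated KO at 188 CPM per kb, ahead of Ctsk at 27.6, Atp6v0d2 at 10.3, Nfatc1 at 6.52, Calcr at 4.32 and Itgb3 at 1.05. In KO with PBS Atp6v0d2 led at 320 CPM per kb, ahead of Ctsk at 102, Acp5 at 65.8, Nfatc1 at 9.79 and Itgb3 at 7.01. In stimulated WT the order was Acp5 at 249, Atp6v0d2 at 15.6, Ctsk at 11.1, Nfatc1 at 6.91, Itgb3 at 0.986 and Calcr at 0.491 CPM per kb. In WT with PBS it was Atp6v0d2 at 373, Acp5 at 49.3, Ctsk at 35.3, Nfatc1 at 8.73 and Itgb3 at 2.70 CPM per kb. Neighbours in these orders did not overlap between libraries, whereas below them Ocstamp overlapped a neighbour in all 4 groups.

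**Figure D4:**
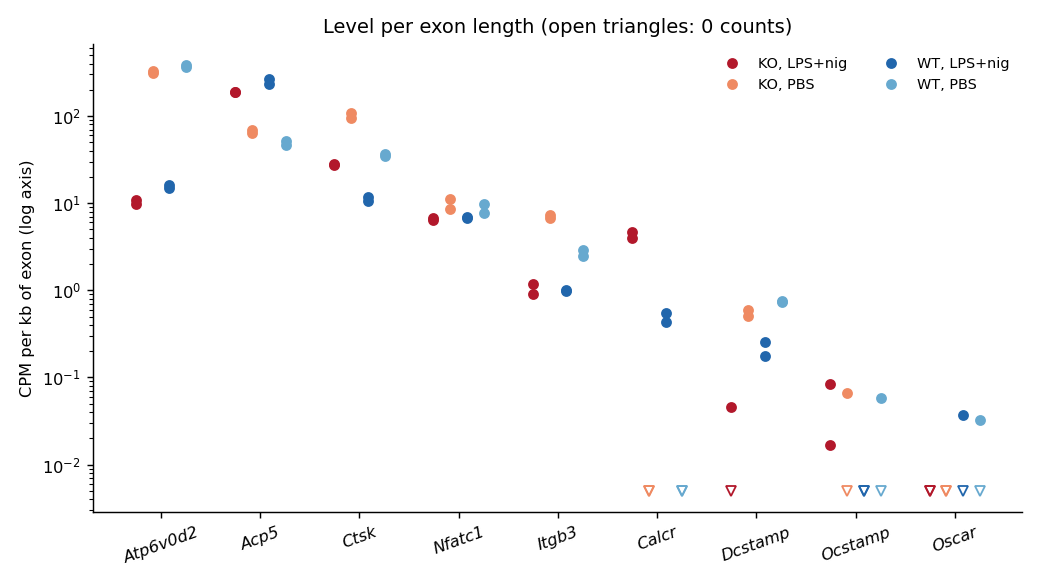
Level per kb of exon (CPM per kb, log axis) of the 9 genes in each of the 8 libraries, coloured by group; open triangles mark libraries with 0 counts and carry no value on the axis. Atp6v0d2 leads in the PBS groups at 320 and 373 CPM per kb and Acp5 in the stimulated groups at 188 and 249.

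Beyond the 9 genes, 105 genes of osteoclast biology on 9 lists were followed, of which 100 were tested. In stimulated KO 25 rose and 39 fell, and in stimulated WT 26 rose and 37 fell. Over all tested genes 20.2% were higher and 19.0% lower in KO, and 20.6% were higher of 40.5% called in WT, so the counts of risen genes lie near that background. The median log2 differences were -0.10 and -0.08, beside -0.03 and -0.01 over all tested genes, and these shares and medians are the background of each single list too.

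Among genes of RANK, M-CSF and calcineurin signalling, 3 rose and 6 fell of 13 in KO, and 3 rose and 5 fell in WT, with medians of -0.26 and -0.14. Vav3, an exchange factor for small GTPases needed for resorption, fell by 1.90 ± 0.08 in KO and by 2.34 ± 0.08 in WT, and Tec, a kinase, fell by 1.55 ± 0.16 in KO and by 1.75 ± 0.16 in WT. The kinase genes Src and Syk rose, Src by 0.96 ± 0.09 in KO and 0.85 ± 0.09 in WT.

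Of 17 transcription factors that act with NFATc1, 6 rose and 4 fell in KO and likewise 6 rose and 4 fell in WT, with medians of 0.04 and 0.29. Jun rose by 1.94 ± 0.09 in KO and by 1.78 ± 0.09 in WT, whereas Fos, required for the lineage, was at -0.15 ± 0.22 in KO and 0.32 ± 0.22 in WT and was not called. Mitf, which drives Acp5 and Ctsk in osteoclasts, was at 0.01 ± 0.18 in KO and 0.52 ± 0.18 in WT, neither called.

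Of 8 repressors of osteoclast formation, 1 rose and 5 fell in KO and 1 rose and 4 fell in WT, with medians of -0.74 and -0.52, beside -0.03 and -0.01 over all tested genes, of which 39.1% were called in KO and 40.5% in WT. Irf8, a repressor of the lineage, fell by 0.79 ± 0.21 in KO (adjusted p in edgeR's test 0.0226) and was at 0.10 ± 0.21 in WT, and the difference of these responses was not called (adjusted p in edgeR's test 0.328). Bcl6 was not called in any comparison by edgeR.

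Of 8 ITAM adaptors and costimulatory receptors 3 rose and 4 fell in KO, and 4 rose and 2 fell in WT, with medians of -0.12 and 0.19. Of the 4, Siglec15 had only 9 and 12 counts in KO with PBS and 0 in both stimulated KO libraries (adjusted p in edgeR's test 0.0468). It passed the filter through PBS libraries alone, and it is also among the 39 genes of the wider lists that fell in KO. Empty in both stimulated groups, it could not be called in the difference of responses. Of 8 genes of matrix degradation and the ruffled border 2 rose and 5 fell in KO, and 2 rose and 4 fell in WT, with medians of -0.33 and -0.20. Of 2 genes for RANKL and its decoy receptor 0 were called in KO and 1, the decoy receptor Tnfrsf11b, fell in WT.

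For adhesion, the actin ring and fusion, 5 rose and 7 fell of 16 in KO, and 3 rose and 7 fell in WT, with medians of -0.25 and -0.28. The integrin chain Itgb5 fell by 1.996 ± 0.07 in KO and by 2.05 ± 0.07 in WT, and Itgb1 rose by 0.89 ± 0.06 in KO and by 0.48 ± 0.06 in WT. Cd9, a tetraspanin that takes part in cell fusion, fell by 2.43 ± 0.09 in KO and by 1.97 ± 0.09 in WT. Between genotypes 4 of the 100 genes were higher and 5 lower in KO after stimulation, beside 2.91% and 2.01% of all tested genes. The higher ones were Atp6v1g2, Cd81, Itgb1 and Mmp14, and the lower ones included Id3, Tcirg1, Atp6v1a and Adam8. With PBS 2 were higher (Mmp14 and the tetraspanin Cd81) and 1 lower, beside 1.2% and 0.355% of all tested genes. In the difference of both responses edgeR called 0 of the 100, beside 0.498% of all tested genes. An unadjusted edgeR p under 0.05 was held by 20, and the share of all genes under that cutoff was not computed. DESeq2 called 3 higher and 2 lower, beside 190 higher and 294 lower among all genes.

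**Figure D5:**
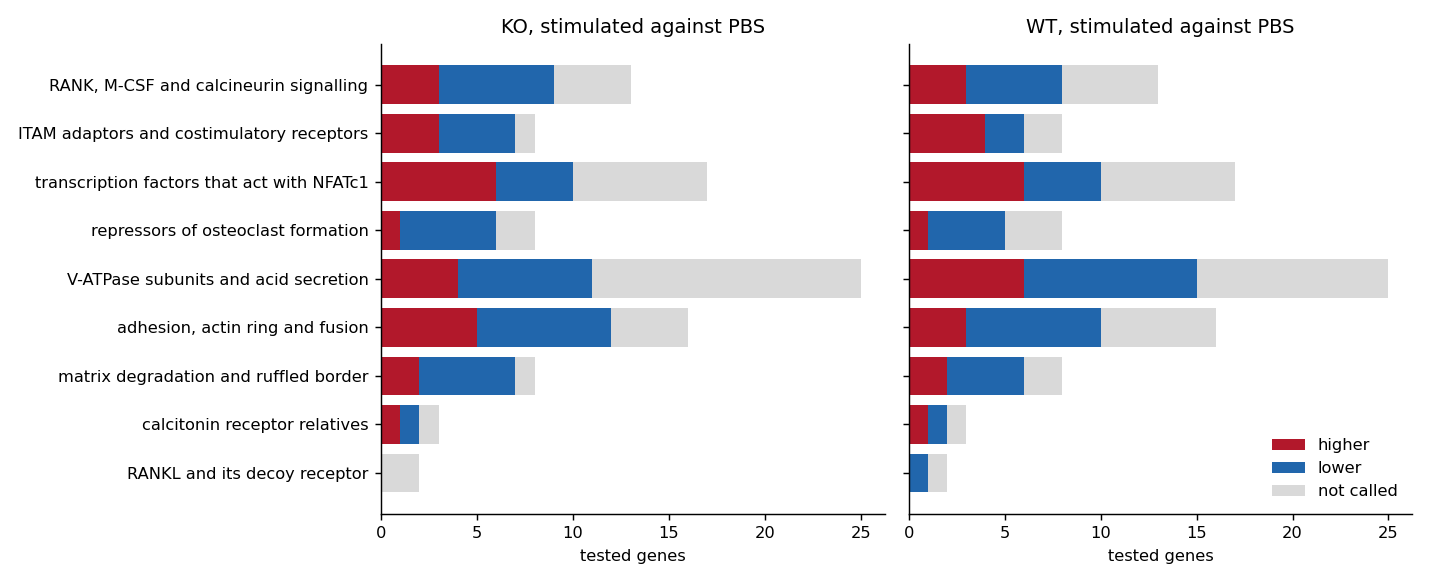
Number of tested genes on each of the 9 wider lists that were higher (red), lower (blue) or not called (grey) in stimulated against PBS cells, in KO (left) and WT (right), by edgeR's test. Every list with more than 3 tested genes holds both risen and fallen members, and repressors of osteoclast formation have 1 risen and 5 fallen in KO and 1 and 4 in WT.

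The genes whose levels followed each member most closely over the 8 libraries, out of 10835 compared, were found by Pearson correlation of log2 CPM, a description in which stimulation is shared by all libraries of a treatment. For Atp6v0d2 they were Arhgap18, Zfyve28 and Man2b1 (r = 0.9998, 0.9996 and 0.9992), and 1160 genes exceeded 0.95. For Acp5 they were Phyhd1, Wdr1 and Coq7, and for Calcr they were Surf4, Fam196a and Dgat2 (r of 0.9966 or more), with 1021 and 761 genes above 0.95. For Ctsk they were Lsp1, Rtl8c and Cpne8 (r = 0.9983, 0.9956 and 0.9937), for Itgb3 Vwf, Paox and Rell1 (r = 0.9939, 0.9895 and 0.9894), for Dcstamp Nmrk1, Lipn and Wdr34, and for Nfatc1 Prkch, Plgrkt and Bmt2. Fewer genes exceeded 0.95 with these members, 112 for Ctsk, 100 for Itgb3, 49 for Dcstamp and 13 for Nfatc1.

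METTL3 places m6A within a consensus whose most used form is GGACU, and m6A itself was not measured. The longest coding transcript of Ctsk holds 4 copies in 1512 bases, or 2.65 per kb, more than 96.1% of 13276 tested coding genes. Itgb3 holds 9 in 5784 bases, Calcr 4 in 3763, Atp6v0d2 3 in 2539, Dcstamp 3 in 1997, Ocstamp 3 in 3657 and Acp5 2 in 1447. Nfatc1 holds 1 in 4797 bases and Oscar 1 in 1829, while the median gene has 1.05 per kb. Per kb, Itgb3 lay above 76.2% of these genes, Dcstamp above 74.3%, Acp5 above 69.0%, Atp6v0d2 above 58.6% and Calcr above 51.0%. Ocstamp lay above 35.7%, Oscar above 20.1% and Nfatc1 above 8.28%.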

How the data were processed

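The authors deposited 1 raw count per gene and library, used here without change. The tools named per the submitters' processing notes are Bowtie2, Trimmomatic and edgeR, on build mm10. For the counting tool, its annotation and its strand setting: not given in the sources used here. Antisense genes therefore cannot be separated from their partners.

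Symbols, positions and exon lengths came from GENCODE M21 (GRCm38), which matched 55141 of 55401 genes. Genes were kept by filterByExpr (minimum count 10, minimum total 15). All 8 libraries were fitted with 1 coefficient per group (edgeR 4.0.16, R 4.3.3), TMM scaling and quasi-likelihood F tests, with Benjamini-Hochberg adjustment within each of 5 contrasts at 0.05. Standard errors are the unshrunk log2 difference over the root of F. CPM uses TMM-scaled library sizes, and log2 CPM a prior count of 2. The test was checked on simulated data. Alternatives were DESeq2 1.42.0, its size factors, library size alone, no filter, only the groups compared, a replicate block and each library left out.

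The members and lists were chosen with earlier results of these data known. By the rule for names, the text gives the 9 members, fixed partners of members, up to 3 called genes with the smallest adjusted p per list and contrast (all where 5 or fewer were called), and the 3 genes most correlated with each member of at least 1 CPM. Vwf, Itga2b and the list of megakaryocyte markers, 6530413G14Rik, Lyz2, Bglap, Runx2, Siglec15 and Atp6v1g1 were named after their values were seen. Some genes that the rule selects are not reported here. Figures were drawn with matplotlib 3.10.9.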

Additional observations from a re-analysis of the deposited data

Results flagged for a closer look

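Acp5 was the 1 member whose libraries moved in opposite directions with genotype under the 2 treatments. After stimulation both KO libraries (383 and 381 CPM) lay below both WT libraries (476 and 535 CPM), and with PBS both KO libraries (139 and 128 CPM) lay above both WT libraries (106 and 93.8 CPM). The difference of both effects was -0.82 ± 0.13 log2 units, which edgeR did not call (adjusted p = 0.0674) and DESeq2 did (adjusted p = 3.58e-05).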

How the results depend on the processing

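DESeq2's size factors and no filter left every count of called members within 1.5 times the main one. DESeq2's test called 3 members lower in KO after stimulation and 2 lower in the difference of responses, against 1 and 0 in edgeR. With only the groups compared 0 were lower after stimulation. On the wider lists DESeq2 called 4 higher and 4 lower with PBS, 11 lower after stimulation, and 3 higher and 2 lower in the difference. With only the groups compared these were 0 and 0 with PBS and 1 lower after stimulation. With library size alone they were 8 higher and 2 lower after stimulation, against 4 and 5 with TMM. For all genes DESeq2 called 573 and 305 with PBS, 943 higher and 711 lower after stimulation, and 190 higher and 294 lower in the difference. With only the groups compared they were 33 and 12 with PBS and 300 and 203 after stimulation, against 209 and 62, and 508 and 352. With library size alone 1044 were higher and 236 lower after stimulation. That scaling put the all-gene median at -0.112 in KO, -0.197 in WT and 0.127 for KO minus WT after stimulation.

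The replicate block changed no member's call, and called 1 higher and 2 lower on the wider lists with PBS and 1 higher in the difference. Same-numbered libraries deviated with r of -0.015 to 0.101 between groups. With 2 libraries per group these values cannot settle whether the numbers pair libraries by mouse or culture.

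Without 1 library, members called lower were 4 to 5 in KO, 3 to 4 in WT, and 0 to 1 after stimulation, and those higher with PBS 1 to 2. The wider lists had 20 to 26 higher and 30 to 39 lower in KO, 22 to 26 and 30 to 36 in WT, 1 to 1 and 0 to 1 with PBS, 0 to 6 and 0 to 4 in stimulated cells, and 0 to 1 and 0 to 1 for the difference. All genes had 2582 to 3616 and 2379 to 3467 in KO, 2748 to 3474 and 2520 to 3270 in WT, 56 to 196 and 17 to 68 with PBS, 80 to 356 and 76 to 263 in stimulated cells, and 5 to 31 and 15 to 68 for the difference. The log2 difference KO minus WT of Nfatc1 with PBS ranged from -0.033 to 0.355, below 0 without KO PBS replicate 2 or WT PBS replicate 1. That of Itgb3 after stimulation ranged from -0.118 to 0.27, below 0 without stimulated KO replicate 1. That of Nfatc1 after stimulation turned to 0.055 with library size alone. The cause was not tested. Depth limits Oscar, Ocstamp and Dcstamp.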
